A study of Homo sapiens with 9 samples.

Results

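Oxidative phosphorylation in mitochondria is carried out by the respiratory chain (complexes I to IV) and ATP synthase (complex V). Complexes I, III and IV pump protons across the inner membrane as electrons pass from NADH or succinate to oxygen, and ATP synthase uses the returning protons to make ATP. Complex II, the succinate dehydrogenase of the citric acid cycle, feeds electrons in without pumping. Most subunits are encoded in the nucleus and imported, while the mitochondrial genome encodes a small set of core subunits of every complex except complex II.

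The genes described here are the nuclear-encoded subunits, taken by gene symbol: NDUFA, NDUFB, NDUFC, NDUFS and NDUFV genes for complex I, SDHA to SDHD for complex II, UQCR genes and CYC1 for complex III, COX4 to COX8 genes for complex IV, and ATP5 genes for complex V. Assembly factors and pseudogenes were left out, and NDUFA4 and NDUFA4L2, now named COXFA4 and COXFA4L2, were placed in complex IV. The rule gave 196 probe sets of 49395 on the array, for 86 genes of the 18132 named by a single symbol. Complex I had 36 of these genes, complex II 3, complex III 9, complex IV 19 and complex V 19.

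RNA came from HCCC-9810, an established human cholangiocarcinoma (bile duct cancer) line, and was hybridised to Affymetrix arrays after transfection with si-BAP1, si-MBD5 or a control called si-Control in the sample titles, 3 arrays each. BAP1 is the deubiquitinase of the PR-DUB chromatin complex, and MBD5 is a methyl-CpG-binding domain protein that binds this complex. The labels call the control an siRNA in some fields and an shRNA in others, and they describe the 3 arrays per group as biological replicates. The p-values therefore cover the variation among samples of 1 cell line, and less RNA per cell cannot be told apart from fewer cells of a kind. All groups are the same line, and no allele or further agent is given.

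The target BAP1 was not analysed here, so the si-BAP1 label was not checked against its own transcript. The brighter probe set of MBD5 had intensities of 8.66, 7.61 and 6.99 on the si-BAP1 arrays, 6.20, 6.20 and 6.11 on the si-MBD5 arrays and 7.16, 7.06 and 6.90 on the si-Control arrays. The si-MBD5 arrays lay below the others, but the signal, above only 11.9% of probe sets, is too near the floor to check the label. Array medians lay between 36.9 and 38.2, and within-group correlations of log2 values were 0.997 to 0.998. The ratio of ACTB signal from its 3′ to its 5′ probe set, a sign of RNA quality, averaged 11.1 ± 0.31 on the si-BAP1 arrays, 12.3 ± 0.72 on the si-MBD5 arrays and 12.2 ± 0.52 on the si-Control arrays (SD, n = 3 each). All 3 si-BAP1 arrays lay below the others for ACTB. The same ratio for GAPDH averaged 1.08 ± 0.011 in si-BAP1, 1.07 ± 0.0046 in si-MBD5 and 1.06 ± 0.026 in si-Control (SD, n = 3 each), and there the groups overlapped. The part of these ratios in the results was not tested. Of the cholangiocyte markers, KRT7 was above the filter on low signal described below, at 1004 ± 47.6 in si-BAP1, 980 ± 44.0 in si-MBD5 and 1118 ± 42.4 in si-Control (SD, n = 3 each), as was SOX9, while KRT19, EPCAM, CFTR and SPP1 were below it. KRT7 fell in si-BAP1 and in si-MBD5, by 0.15 and 0.19 on the log2 scale (limma adjusted p = 0.024 and 0.011). SOX9 did not move with it in si-BAP1: its value there was 0.15, of opposite sign, and -0.02 in si-MBD5. Neither SOX9 value passed the threshold. Of the markers of other cell types on the array, 2 of 5 for hepatocytes (APOA1 and TTR), 4 of 6 for fibroblasts and endothelium (COL1A1, PDGFRB, PECAM1 and VWF) and 3 of 4 for immune cells (CD3E, CD68 and CD79A) were above the filter, each with group means under 70 and none of the 9 past the threshold but PDGFRB. The hepatocyte markers ALB, SERPINA1 and CYP3A4, the fibroblast marker COL3A1, the endothelial marker CDH5 and the leukocyte marker PTPRC were below it. PDGFRB averaged 62.1 ± 2.24 in si-BAP1, 66.8 ± 4.26 in si-MBD5 and 53.9 ± 2.78 in si-Control (SD, n = 3 each) and rose by 0.16 and 0.24 in the 2 knockdowns (limma adjusted p = 0.041 and 0.0063). The part of KRT7 and PDGFRB, or of the cells they mark, in the results was not tested.

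Signal is given as deposited intensity on a linear scale. The brightest probe set stood for each gene, and genes were tested where its mean over the 9 arrays was above the 40th percentile of probe set means (25.5). Changes are log2 fold changes of intensity + 16 from limma's moderated test, adjusted by Benjamini-Hochberg over all 12434 genes tested, with a threshold of 0.05. Of the subunit genes, 82 of 86 were tested. The 4 below the filter were the tissue-restricted isoforms COX7A1 (15.9), COX8C (11.0) and COX7B2 (2.63) and the gene ATP5MGL (11.1), and the nearest inside it were COX4I2 (28.4) and COXFA4L2 (29.4). Subunit genes were bright, with a median intensity of 1784 against 145 over all genes tested, and steady, with a median SD within groups of 0.04 on the log2 scale against 0.061.

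Nuclear oxidative phosphorylation genes share promoter elements recognised by the transcription factors NRF1, GABP (an ETS-family factor) and YY1. RefSeq promoter windows, 250 bases before to 50 after the start on GRCh38.p14, were matched for 70 of the 86 genes. The first window listed for each subunit gene was used. The shares of all windows count every window, without limiting them to 1 per gene or to genes tested, so the units differ. CCGGAAG, an ETS core, was found on either strand in 19 of the 70 windows (27.1%), against 10.3% of all 35116 windows. The NRF1 word, the first run of capitals in the SDHD window, was in 4 (5.71%, against 1.24%) and the YY1 word ATGGCGGC in 11 (15.7%, against 3%). These are matches to letters, not measured sites. The 4 windows below were chosen, after matches were known, to show what such matches look like: 3 belong to genes that fell in both knockdowns and 1 to the largest rise among the subunits. Among the other genes that fell in both, the COX5B window holds 2 ETS matches and the COX6B1 window 1. The windows of COX7B, NDUFB4 and UQCRC1, which also fell in both, hold 0 ETS matches. NDUFB4 has 1 match to the NRF1 word and UQCRC1 has 1 to the YY1 word. Matches to the ETS core and the NRF1 word are in capitals, each window is written 5′ to 3′ on the strand of its gene, and CTTCCGG is the ETS core on the other strand. The ATP5PD window (chr17:75046920-75047219, minus strand) holds 1 ETS match, the SDHD window (chr11:112086623-112086922, plus strand) 1 NRF1 and 1 ETS match, the UQCR11 window (chr19:1605413-1605712, minus strand) 2 ETS matches, and the NDUFA8 window (chr9:122159730-122160029, minus strand) 1 NRF1 match.
ATP5PD: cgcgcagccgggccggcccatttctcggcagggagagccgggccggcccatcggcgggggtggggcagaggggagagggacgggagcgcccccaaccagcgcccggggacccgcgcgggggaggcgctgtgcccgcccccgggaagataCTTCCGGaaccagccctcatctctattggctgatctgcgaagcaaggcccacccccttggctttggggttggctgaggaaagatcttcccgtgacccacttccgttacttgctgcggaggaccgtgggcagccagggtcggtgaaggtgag
SDHD: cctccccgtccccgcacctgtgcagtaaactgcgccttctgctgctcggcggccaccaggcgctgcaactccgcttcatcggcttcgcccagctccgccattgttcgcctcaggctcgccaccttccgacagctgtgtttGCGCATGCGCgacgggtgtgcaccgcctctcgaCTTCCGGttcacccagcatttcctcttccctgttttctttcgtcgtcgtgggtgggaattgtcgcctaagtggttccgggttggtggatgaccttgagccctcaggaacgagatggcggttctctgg
UQCR11: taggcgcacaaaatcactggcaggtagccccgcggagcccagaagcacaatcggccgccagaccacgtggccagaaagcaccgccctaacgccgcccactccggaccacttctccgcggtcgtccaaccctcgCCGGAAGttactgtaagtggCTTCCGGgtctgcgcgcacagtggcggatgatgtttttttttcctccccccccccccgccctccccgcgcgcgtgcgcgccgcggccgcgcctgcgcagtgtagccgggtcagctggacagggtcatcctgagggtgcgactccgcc
NDUFA8: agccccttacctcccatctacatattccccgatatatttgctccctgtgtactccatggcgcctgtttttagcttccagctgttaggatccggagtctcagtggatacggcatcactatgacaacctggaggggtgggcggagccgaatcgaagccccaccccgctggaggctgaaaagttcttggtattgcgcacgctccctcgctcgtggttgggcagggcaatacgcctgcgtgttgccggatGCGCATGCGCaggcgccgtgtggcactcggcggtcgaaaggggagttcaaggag

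In si-MBD5 cells the subunit genes lay slightly below control as a group, with small falls in all 5 complexes and 1 small rise. Against si-Control, 17 of the 82 genes fell and 1 rose (22% past the threshold, against 16.3% of all genes tested). The split was 20.7% lower, against 8.99% of all genes, and 1.22% higher, against 7.29%. The median log2 fold change was -0.054, against 0.00 over all genes, and 60 of the 82 values were below 0. All 3 si-MBD5 arrays lay below all 3 si-Control arrays for 33 genes (16.4% of all genes did so) and above them for 3 (14% of all genes). The falls were small, none beyond -0.23.

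In si-BAP1 cells the total share of subunit genes past the threshold was near that of all genes tested. Rises and falls were both present, but by direction a larger share fell and a smaller share rose than among all genes. Against the same si-Control arrays, 13 of the 82 genes fell and 6 rose (23.2% past the threshold, against 23.5% of all genes tested). The split was 15.9% lower, against 11.1% of all genes, and 7.32% higher, against 12.4%. The median was -0.013, against 0.00 over all genes, with values between -0.32 and 0.17. For 22 of the 82 genes all 3 si-BAP1 arrays lay below the si-Control arrays (17.4% of all genes), and for 6 of the 82 they lay above (20% of all genes). Of the 63 genes that did not pass, 62 had a 95% interval within 0.25 of 0 on the log2 scale, against 8525 of 9516 among all genes. This bound is wide for the subunits: 77 of the 82 intervals lay within it, those of called genes included. It therefore does not show that a gene was unchanged. The 2 knockdowns share their control arrays, so values for both are given side by side with no measure of likeness between them.

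**Figure D1:**
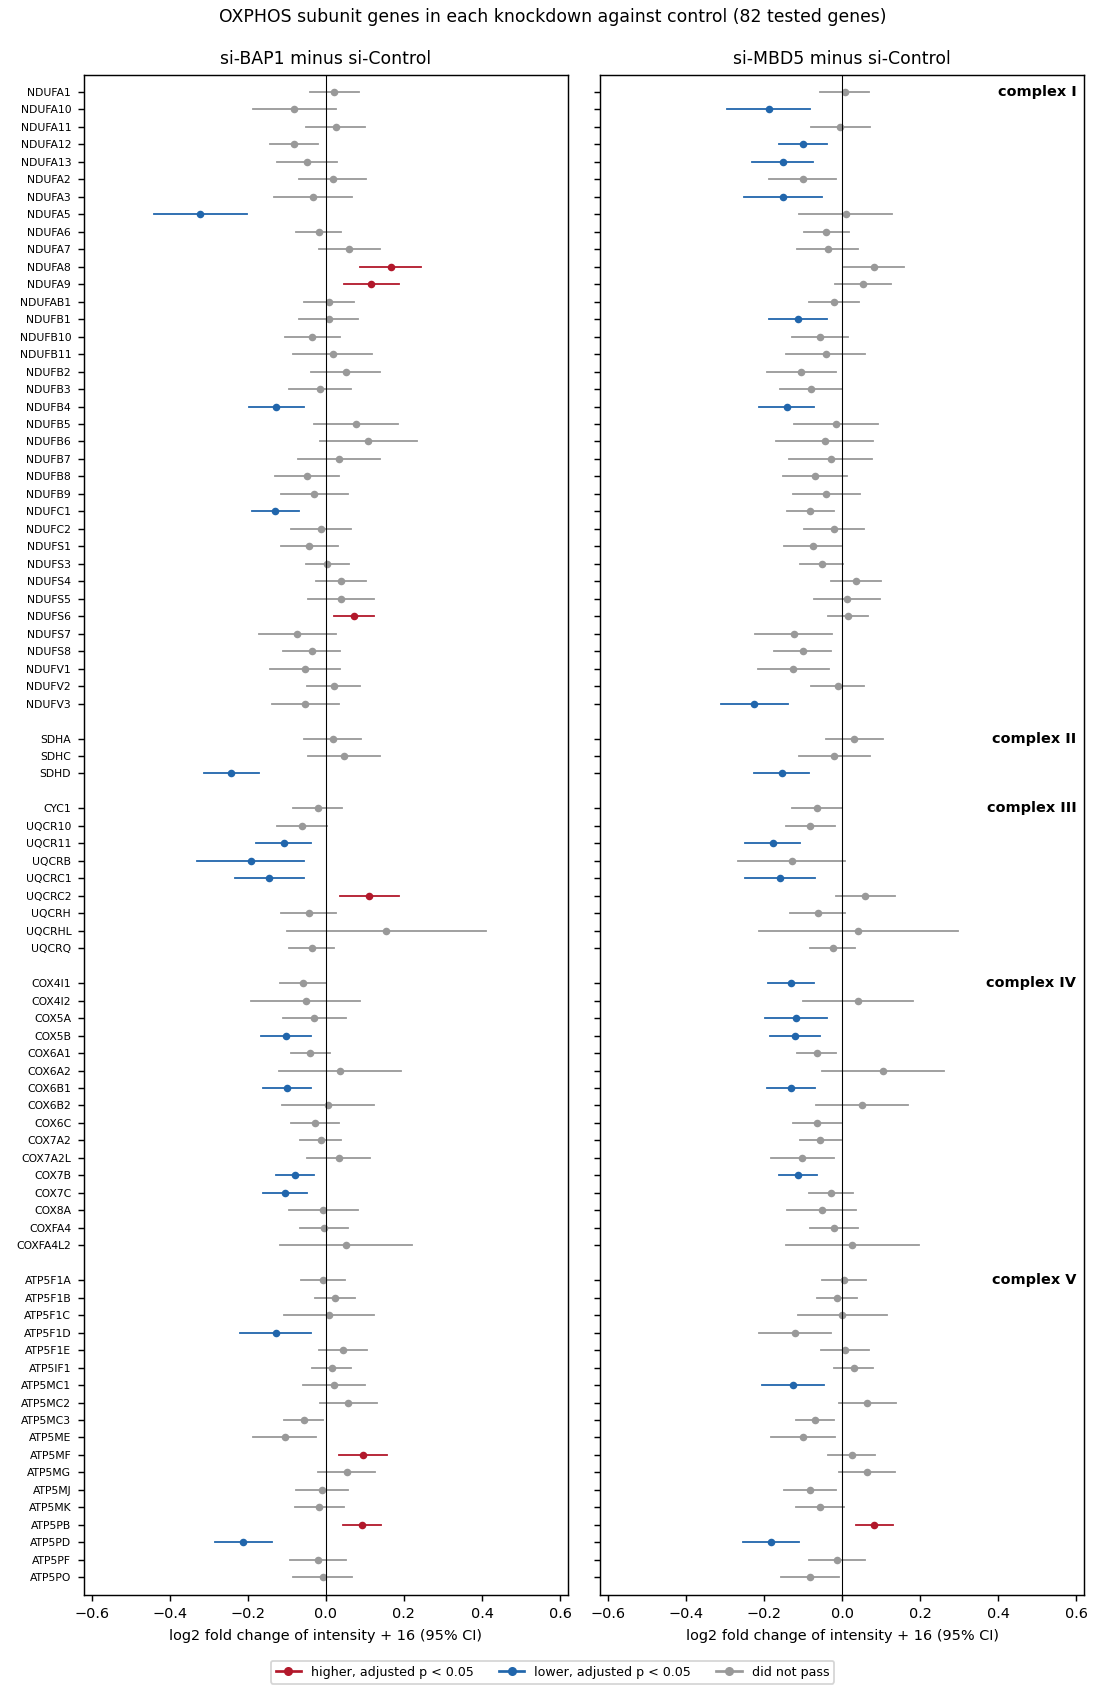
Log2 fold change of intensity + 16 (x axis) for each of the 82 tested subunit genes (rows, by complex) in si-BAP1 (left) and si-MBD5 (right), each minus si-Control; points are limma estimates, lines are 95% intervals, and colour marks adjusted p under 0.05 over all genes. In si-MBD5, 17 points are marked lower and 1 higher, and in si-BAP1, 13 are marked lower and 6 higher.

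The array means behind these counts show the same placement. The mean over the 82 genes, relative to the si-Control mean, was -0.065, -0.045 and -0.045 on the si-MBD5 arrays on the log2 scale. It was -0.023, -0.010 and -0.022 on the si-BAP1 arrays and 0.008, -0.005 and -0.003 on the si-Control arrays. The si-MBD5 arrays lay below the others and the si-BAP1 arrays between them, each group apart from the next. Over all genes tested, the same means lay between -0.009 and 0.006 on the 9 arrays.

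**Figure D2:**
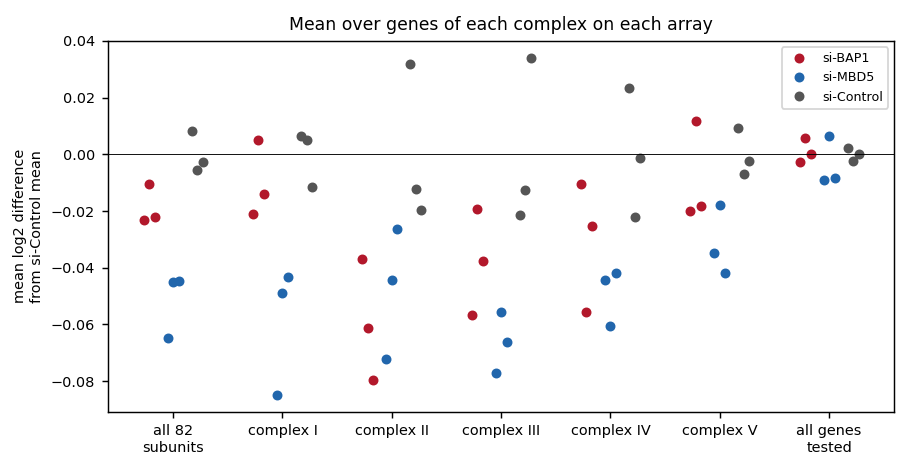
Mean log2 difference from the si-Control mean (y axis) over the tested genes of each complex, over all 82 subunits and over all genes tested; each point is 1 array, with si-BAP1, si-MBD5 and si-Control in colour. The 3 si-MBD5 arrays lie at -0.065 to -0.045 over all 82 subunits, below the si-BAP1 and si-Control arrays.

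**Figure D3:**
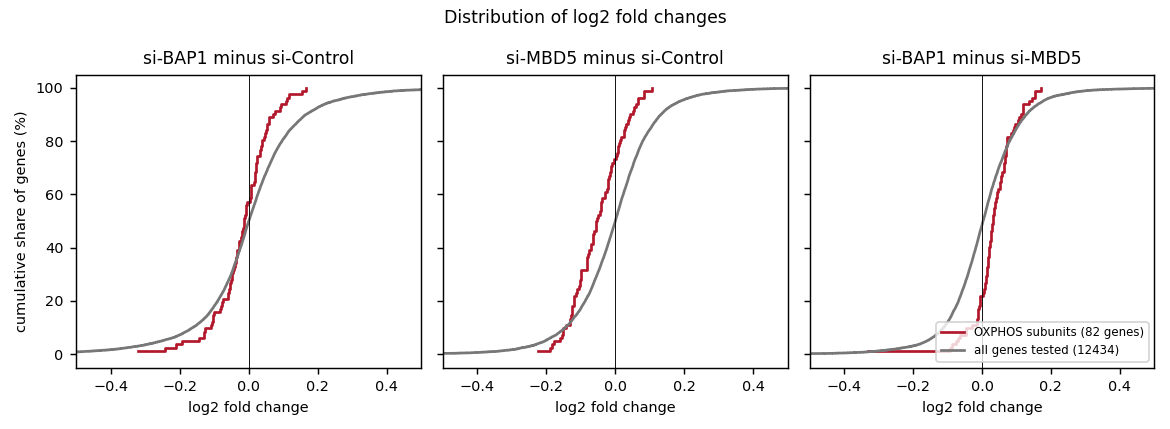
Cumulative share of genes (y axis, percent) at or below each log2 fold change (x axis) for the 82 tested subunit genes and for all 12434 genes tested, in 3 comparisons. In si-MBD5 against si-Control the curve of the subunits lies left of that of all genes (medians -0.054 and 0.00), and in si-BAP1 against si-MBD5 it lies to the right (medians 0.031 and 0.00).

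After quantile normalization the median of the subunit genes in si-MBD5 was -0.030, with 15 genes lower and 1 higher, and it stayed below that of all genes (0.00). Bright genes that are not subunits leaned less: among the 1055 above an intensity of 1000, a level chosen after values were seen, 14.2% fell and 11.5% rose in si-MBD5 with a median of -0.013, against 13 and 1 of the 58 subunit genes above that level and a median of -0.056. In si-BAP1, 17.3% of the same 1055 genes fell and 17.7% rose, with a median of -0.0055. Of the 58 subunit genes, 9 fell and 5 rose in si-BAP1, with a median of -0.018. The 95th percentile of intensity was 811, 840 and 805 on the si-MBD5 arrays and 825, 826 and 831 on the si-Control arrays. The part of this difference in the si-MBD5 result was not tested.

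Complex I is the NADH dehydrogenase and the largest complex, with core subunits that carry out electron transfer and accessory subunits around them. In si-MBD5, 7 of its 36 genes fell and 0 rose (19.4% past the threshold, against 16.3% of all genes, all of them lower, against 8.99%; median -0.048). In si-BAP1, 3 fell and 3 rose (16.7%, below the 23.5% of all genes; median -0.0048). The 6 core genes tested here (NDUFV1, NDUFV2, NDUFS1, NDUFS3, NDUFS7 and NDUFS8), part of the matrix arm and, for most, binding its flavin or iron-sulfur centres, had 0 genes past the threshold in either knockdown or between them. All 6 core values in si-MBD5 were below 0 (median -0.088), and for NDUFV1 the difference was -0.12 ± 0.042 (SE; limma adjusted p = 0.061).

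NDUFA5, an accessory subunit of the matrix arm, had the largest difference of any subunit, and in si-BAP1 alone of the 2 knockdowns. Its intensity was 446, 503 and 443 in si-BAP1, 555, 595 and 612 in si-MBD5 and 559, 616 and 575 in si-Control. The 3 si-BAP1 arrays lay below all the others, and the si-MBD5 and si-Control arrays overlapped. The log2 fold change was -0.32 ± 0.055 in si-BAP1 (0.80-fold; SE, limma adjusted p = 0.00075) and 0.01 in si-MBD5 (adjusted p = 0.94). The test of the difference gave -0.33 for si-BAP1 minus si-MBD5 (adjusted p = 0.0018). NDUFA5 has 1 probe set, of a kind (_s_at) that can hybridise to more than 1 transcript, so there is no second reading.

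NDUFV3, a small accessory subunit of the NADH-binding module, showed the reverse placement. It read 732, 731 and 747 in si-BAP1, 625, 666 and 666 in si-MBD5 and 792, 774 and 730 in si-Control. The si-MBD5 arrays lay below all the others, and the si-BAP1 and si-Control arrays overlapped. It fell by 0.23 ± 0.040 in si-MBD5 (0.86-fold; limma adjusted p = 0.0018), the value in si-BAP1 was -0.05 (adjusted p = 0.41), and si-BAP1 exceeded si-MBD5 by 0.17 (adjusted p = 0.015).

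The other genes of complex I past the threshold moved by less. NDUFA8, a cysteine-rich accessory subunit on the intermembrane-space side, had the largest rise: 2468, 2623 and 2607 in si-BAP1, 2378, 2518 and 2366 in si-MBD5 and 2253, 2230 and 2374 in si-Control. All si-BAP1 arrays were above all si-Control arrays, and the si-MBD5 arrays overlapped both groups. The rise was 0.17 ± 0.036 in si-BAP1 (limma adjusted p = 0.004), and the value in si-MBD5 was 0.08 (adjusted p = 0.15). NDUFA9, an accessory subunit near the quinone site, and NDUFS6, a zinc-binding accessory subunit, also rose in si-BAP1, by 0.12 and 0.07 (adjusted p = 0.02 and 0.043), though NDUFS6 passed in only 8 of 21 other settings.

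Falls in complex I beside NDUFA5 and NDUFV3 were in accessory subunits, most of them of the membrane arm. NDUFB4 read 2100, 2237 and 2222 in si-BAP1, 2163, 2141 and 2184 in si-MBD5 and 2472, 2344 and 2348 in si-Control. Both knockdowns lay below the si-Control arrays, by 0.13 in si-BAP1 and 0.14 in si-MBD5 (limma adjusted p = 0.011 and 0.009). NDUFC1 fell by 0.13 in si-BAP1 (adjusted p = 0.0038), with 1494 to 1501 in si-BAP1 and 1619 to 1659 in si-Control, and its value in si-MBD5 was -0.08 (adjusted p = 0.064). In si-MBD5, NDUFA10 fell by 0.19, NDUFA13 (GRIM-19) and NDUFA3 by 0.15 each, NDUFB1 by 0.11 and NDUFA12 by 0.10 (adjusted p between 0.011 and 0.042). NDUFA3 and NDUFB1 passed in 7 of 21 other settings each.

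In complex II, SDHD, the small membrane anchor and a tumour suppressor in paraganglioma, was lower in both knockdowns, while the values of the flavoprotein SDHA and the larger anchor SDHC did not pass. SDHD had intensities of 738, 753 and 730 in si-BAP1, 794, 789 and 781 in si-MBD5 and 890, 855 and 892 in si-Control. The 3 groups did not overlap, with si-BAP1 lowest. It fell by 0.24 ± 0.033 in si-BAP1 (0.85-fold; limma adjusted p = 0.00012) and by 0.15 ± 0.033 in si-MBD5 (0.90-fold; adjusted p = 0.0057). The difference between the knockdowns, -0.09, did not pass (adjusted p = 0.12). All 5 SDHD probe sets above the filter are of the kinds that can hybridise to more than 1 transcript (names ending _s_at or _x_at), so near-identical copies may contribute. SDHA differed by 0.02 and 0.03 and SDHC by 0.05 and -0.02, in si-BAP1 and in si-MBD5. SDHB was not among the 3 complex II genes that the rule gave, so it was not read. SDHA carried the same value, 1739, on all 3 si-BAP1 arrays. Exact repeats between arrays occurred for up to 5.49% of probe sets in any pair, and the sources used here do not give the step that made them.

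Complex III passes electrons from ubiquinol to cytochrome c. In si-BAP1, 3 of its 9 genes fell and 1 rose (44.4% past the threshold, against 23.5% of all genes; median -0.044), and in si-MBD5, 2 fell and 0 rose (22.2%, against 16.3%; median -0.064). UQCR11, its smallest subunit, read 1287, 1314 and 1297 in si-BAP1, 1239, 1280 and 1195 in si-MBD5 and 1379, 1404 and 1423 in si-Control. Both knockdowns lay wholly below si-Control and apart from each other. The falls were 0.11 ± 0.032 in si-BAP1 and 0.18 ± 0.032 in si-MBD5 (limma adjusted p = 0.026 and 0.0022), but a dimmer UQCR11 probe set gave 0.06 and 0.05, with neither past the threshold.

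The 2 large core proteins of complex III, UQCRC1 and UQCRC2, differed in sign in si-BAP1. UQCRC1 read 1966, 1915 and 1988 in si-BAP1, 1879, 1888 and 2044 in si-MBD5 and 2286, 2144 and 2066 in si-Control. All knockdown arrays were below all si-Control arrays. UQCRC1 fell by 0.14 in si-BAP1 and by 0.16 in si-MBD5 (limma adjusted p = 0.021 and 0.018), whereas UQCRC2 rose by 0.11 in si-BAP1 (adjusted p = 0.034) and had a value of 0.06 in si-MBD5 (adjusted p = 0.30). The UQCRC2 rise passed in 12 of 21 other settings, and its other probe set read 0.02. UQCRB fell by 0.19 in si-BAP1 (adjusted p = 0.042), at 474, 528 and 489 in si-BAP1 against 563, 532 and 617 in si-Control, with no overlap. Its other probe sets above the filter read 0.04 and 0.02, so the fall rests on 1 probe set. UQCRHL is a near-identical copy of UQCRH and its reads are uncertain: it had the widest spread within groups of any subunit (0.21), and its value of 0.16 in si-BAP1 did not pass.

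**Figure D4:**
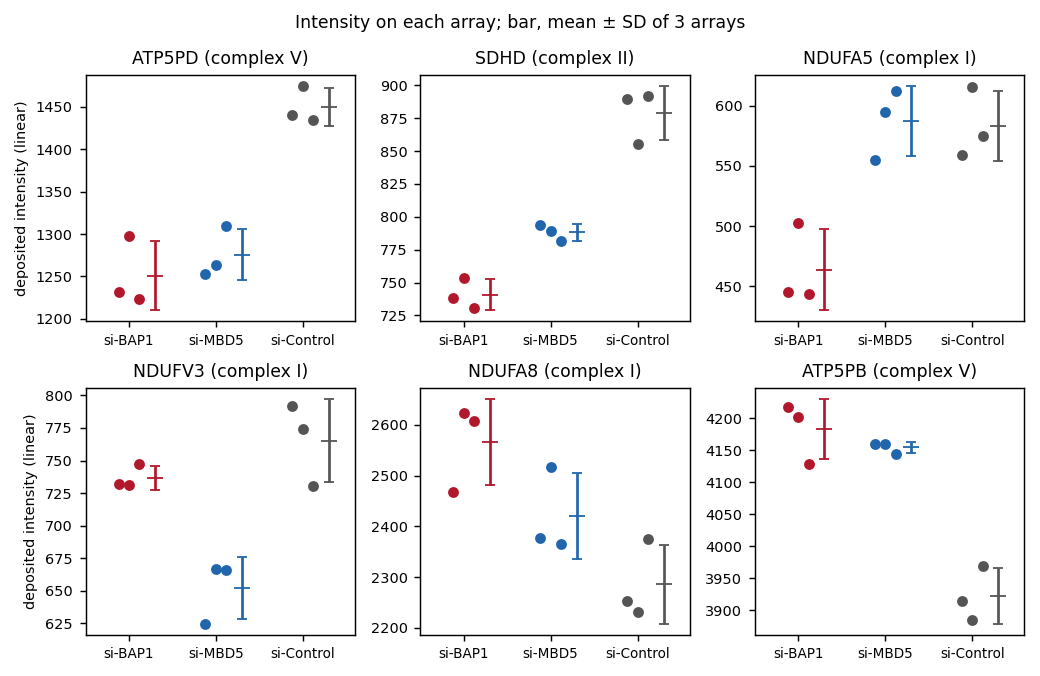
Deposited intensity (y axis, linear, not starting at 0) on each array for 6 subunit genes, with the mean ± SD of 3 arrays beside the points; groups are si-BAP1, si-MBD5 and si-Control from left to right. ATP5PD and SDHD are lower than si-Control in both knockdowns, NDUFA5 in si-BAP1 and NDUFV3 in si-MBD5, while NDUFA8 is higher in si-BAP1 and ATP5PB in both.

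Complex IV, cytochrome c oxidase, surrounds its mitochondrial core with small nuclear subunits, some with isoforms restricted to muscle, testis or lung. For the 12 commonly expressed genes, every value in si-MBD5 was below 0 (median -0.084), and 5 fell (41.7%, against 8.99% of all genes lower). In si-BAP1, 4 of the 12 fell and 0 rose (33.3%, against 11.1% of all genes lower; median -0.034). Over all 16 tested genes of complex IV, restricted isoforms included, 31.2% fell in si-MBD5 (median -0.059) and 25% in si-BAP1 (median -0.028), with 0 rises. COX4I1, the regulatory subunit, read 3406, 3465 and 3465 in si-BAP1, 3314, 3351 and 3166 in si-MBD5 and 3649, 3567 and 3551 in si-Control. The knockdown arrays were all below si-Control. COX4I1 fell by 0.13 ± 0.027 in si-MBD5 (0.91-fold, limma adjusted p = 0.0049), and its value in si-BAP1 was -0.06 (adjusted p = 0.15). Its 2 other probe sets above the filter read -0.11 and -0.02 in si-MBD5, and neither passed. The call was lost with the mean of its probe sets and without _x_at and _s_at probe sets.

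COX7B, a membrane-spanning subunit, read 3703, 3708 and 3686 in si-BAP1, 3674, 3557 and 3601 in si-MBD5 and 3925, 3891 and 3903 in si-Control. All 6 knockdown arrays were below the lowest si-Control array. It fell by 0.08 ± 0.023 in si-BAP1 and by 0.11 ± 0.023 in si-MBD5 (limma adjusted p = 0.023 and 0.0042), and its second probe set fell in both as well, by 0.10 and 0.16. COX5B, a matrix-facing subunit, fell by 0.10 in si-BAP1 and 0.12 in si-MBD5, and COX6B1, on the intermembrane-space side, by 0.10 and 0.13 (adjusted p = 0.024, 0.014, 0.022 and 0.007). COX7C fell only by the si-BAP1 test (-0.10, adjusted p = 0.01; -0.03 in si-MBD5, adjusted p = 0.51) and COX5A only by the si-MBD5 test (-0.12, adjusted p = 0.042, passing in 8 of 21 other settings; -0.03 in si-BAP1, adjusted p = 0.65). The tests of si-BAP1 against si-MBD5 did not pass for COX7C (-0.07, adjusted p = 0.098) or COX5A (0.09, adjusted p = 0.16).

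The restricted isoforms of complex IV gave little signal. COX4I2 (lung and hypoxia), COX6A2 (heart and skeletal muscle), COX6B2 (testis) and COXFA4L2 (hypoxia) were tested, with group means between 26.9 and 62.1, and 0 of the 4 passed in any comparison. In si-MBD5 all 4 values were above 0 (median 0.046), unlike those of the commonly expressed genes. COX7A1, the muscle partner of COX7A2, averaged 14.1 ± 0.86 in si-BAP1, 16.5 ± 0.90 in si-MBD5 and 16.9 ± 0.77 in si-Control (SD, n = 3 each), below the filter and untested. The muscle markers MYH7, CKM and ACTA1 were below the filter too.

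ATP synthase (complex V) had both falls and rises in si-BAP1 and in si-MBD5. The medians were 0.00 in si-BAP1 (2 higher and 2 lower of 18, or 22.2%) and -0.013 in si-MBD5 (1 higher and 2 lower, or 16.7%), and both shares past the threshold are near those of all genes (23.5% and 16.3%). ATP5PD, subunit d of the peripheral stalk, read 1232, 1298 and 1223 in si-BAP1, 1253, 1264 and 1310 in si-MBD5 and 1441, 1475 and 1434 in si-Control. The knockdowns overlapped each other and lay wholly below si-Control. The falls were 0.21 ± 0.033 in si-BAP1 (0.86-fold; limma adjusted p = 0.00039) and 0.18 ± 0.033 in si-MBD5 (0.88-fold; adjusted p = 0.0022).

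ATP5PB, subunit b of the same stalk, moved the other way. It read 4218, 4201 and 4129 in si-BAP1, 4159, 4160 and 4144 in si-MBD5 and 3914, 3884 and 3969 in si-Control. All 6 knockdown arrays were above si-Control. The rises were 0.09 ± 0.022 in si-BAP1 and 0.08 ± 0.022 in si-MBD5 (limma adjusted p = 0.0079 and 0.022). The si-MBD5 rise passed in 12 of 20 other settings and not after median centring, and the other ATP5PB probe sets read 0.01 and 0.07 in si-MBD5, with neither past the threshold. Both ATP5PD and ATP5PB were read from _s_at probe sets.

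In the catalytic F1 head, ATP5F1A, ATP5F1B and ATP5F1C, the alpha, beta and gamma subunits, differed by -0.01, 0.02 and 0.01 in si-BAP1 and by 0.01, -0.01 and 0.00 in si-MBD5. None of these passed. ATP5F1D, the delta subunit of the rotor stalk, fell by 0.13 in si-BAP1 (limma adjusted p = 0.043, passing in 9 of 21 other settings), at 770, 803 and 809 in si-BAP1 against 901, 887 and 823 in si-Control, and its value in si-MBD5 was -0.12 (adjusted p = 0.075). ATP5MF, membrane subunit f, rose by 0.09 in si-BAP1 (adjusted p = 0.026). Of the 3 genes that encode the identical c subunit of the rotor ring, ATP5MC1 fell in si-MBD5 (-0.13, adjusted p = 0.034). ATP5MC2 and the brightest probe set of ATP5MC3 differed by 0.06 and -0.07 in si-MBD5 and did not pass. The 2 dimmer ATP5MC3 probe sets above the filter did pass as lower in si-MBD5. They read -0.09 and -0.12 (limma adjusted p = 0.038 and 0.032 in the fit over all probe sets).

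The direct test of si-BAP1 against si-MBD5 reuses the same knockdown arrays. Here 5 subunit genes were higher in si-BAP1 and 1 lower (7.32% past the threshold, against 9.97% of all genes tested, of which 5.76% higher and 4.21% lower). The median was 0.031, against 0.00 over all genes, 64 of the 82 values were above 0, and for 21 genes the si-BAP1 arrays lay wholly above the si-MBD5 arrays (14.8% of all genes), with 4 wholly below (10.2%). Higher in si-BAP1 were NDUFV3, and by 0.12 to 0.15 NDUFB2 and NDUFB1 of the complex I membrane arm, COX7A2L, which joins complexes III and IV into supercomplexes, and ATP5MC1. COX7A2L read 987, 1017 and 944 in si-BAP1 and 895, 884 and 899 in si-MBD5, with si-Control at 948, 932 and 999 (0.14 ± 0.038, limma adjusted p = 0.037). ATP5MC1 read 998, 1061 and 1046 in si-BAP1 and 925, 971 and 906 in si-MBD5, with si-Control at 1022, 998 and 1040 (0.15 ± 0.037, adjusted p = 0.024). For both genes the si-BAP1 and si-Control arrays overlapped and the si-MBD5 arrays were below. In the other settings COX7A2L passed in 9 of 21, NDUFB1 in 7 of 21, NDUFB2 in 13 of 21 and ATP5MC1 in 14 of 20. NDUFA5 was the gene lower in si-BAP1.

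Several probe sets per gene allowed some of these calls to be read again. In a fit with 1 row per probe set, 11 of the 172 tested subunit probe sets were higher and 15 lower in si-BAP1 (15.1%, against 20.2% of all probe sets, of which 11.4% higher and 8.79% lower). In si-MBD5, 3 were higher and 26 lower (16.9%, against 12.5%, of which 5.9% higher and 6.65% lower), and between the knockdowns 8 were higher in si-BAP1 and 1 lower (5.23%, against 7.69%, of which 4.53% higher and 3.16% lower). Of the 19 genes called in si-BAP1, 10 had other probe sets above the filter, and for 6 of these genes at least 1 other passed in the same direction. Of the 18 called in si-MBD5, 11 had others, and 6 had one that passed. NDUFB4 and SDHD each include a pair of probe sets with identical values on all arrays, so for NDUFB4 the second call is no separate reading.

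For some genes a dimmer probe set disagreed in sign or in call with the brightest one, which stands for the gene. NDUFA13 gave -0.15 and -0.16 from 2 bright probe sets in si-MBD5, but 0.17 from a probe set with a mean of 50.1, which also rose in si-BAP1 (0.21, limma adjusted p = 0.03). NDUFS7 gave -0.07 from its brightest probe set in si-BAP1 and 0.28 from one with a mean of 30.8 (adjusted p = 0.0017). ATP5F1A gave 0.01 from its brightest probe set in si-MBD5 and -0.17 from a dimmer one (adjusted p = 0.032). ATP5IF1, the inhibitor of ATP synthase, was chosen for mention after its values were seen. Its brightest probe set read 0.01 in si-BAP1 and 0.03 in si-MBD5, while a probe set with a mean of 62.6 rose by 0.31 and 0.25 (adjusted p = 0.00037 and 0.0031). All 3 dimmer ATP5IF1 probe sets above the filter read above 0 in both knockdowns, and 2 of them passed as higher in each.

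**Figure D5:**
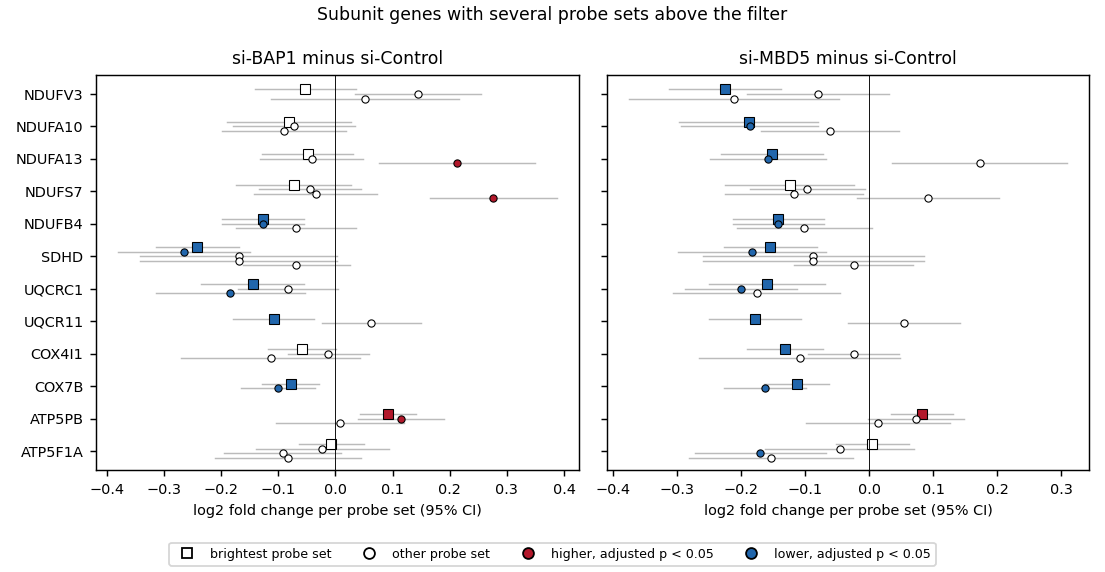
Log2 fold change with 95% interval (x axis) for every probe set above the filter of 12 subunit genes, in si-BAP1 (left) and si-MBD5 (right), each minus si-Control; squares are the brightest probe set of a gene, circles its others, and filled colours mark adjusted p under 0.05 in the fit over all probe sets. The probe sets of COX7B and UQCRC1 lie on 1 side of 0, and those of NDUFA13 on both.

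The counts of calls depended on single arrays. Leaving out si-MBD5 array 1 gave 8 calls in place of 18 in si-MBD5, and leaving out si-Control array 1 or 2 gave 9. In si-BAP1, leaving out si-BAP1 array 1, 2 or 3 or si-Control array 1 or 2 gave 9, 12, 11, 10 and 9 calls in place of 19. ATP5PD, NDUFA5, NDUFA8, NDUFC1 and SDHD in si-BAP1, and ATP5PD, COX7B, NDUFB4 and NDUFV3 in si-MBD5, kept their calls in every setting that gave a value.

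Lists of genes that work beside these subunits are set against the shares of all genes past the threshold, 23.5% in si-BAP1 and 16.3% in si-MBD5. Of 53 assembly factors tested, 8 fell and 5 rose in si-BAP1 (24.5%), and 6 fell and 1 rose in si-MBD5 (13.2%), shares near those of all genes (medians -0.028 and -0.035). TTC19, a complex III assembly factor, fell by 0.29 in si-BAP1 (limma adjusted p = 0.00012), and COA1 fell by 0.25 and 0.21 in si-BAP1 and si-MBD5 (adjusted p = 0.0027 and 0.014). The 3 mitochondrially encoded subunits read here, ND1, ND4 and COX3, had values between -0.02 and 0.10 in si-BAP1 and between -0.07 and 0.09 in si-MBD5, with 0 past the threshold.

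Of 74 mitochondrial ribosomal protein genes, 4 fell and 7 rose in si-BAP1 (14.9%), and 6 fell and 2 rose in si-MBD5 (10.8%), both below the shares of all genes (medians 0.0087 and -0.032). MRPL46 had the largest fall among them, 0.47 ± 0.037 in si-BAP1 (679 ± 24.2 in si-BAP1, 930 ± 29.4 in si-MBD5, 947 ± 11.9 in si-Control, SD, n = 3 each; limma adjusted p = 1.2e-06). Of 25 genes of the citric acid cycle and pyruvate dehydrogenase, 3 fell and 1 rose in si-BAP1 (16%), and 4 fell and 2 rose in si-MBD5 (24%; medians -0.018 and -0.067). PDHX, the E3-binding protein of pyruvate dehydrogenase, fell by 0.46 ± 0.049 in si-BAP1 and 0.23 ± 0.049 in si-MBD5 (adjusted p = 1.7e-05 and 0.0065), with means of 746 ± 17.6, 880 ± 66.6 and 1030 ± 32.3 in si-BAP1, si-MBD5 and si-Control (SD, n = 3 each). These exceed the largest change of any subunit in the same comparison for si-BAP1.

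Mitochondrial import genes, 25 tested, had 4 rises and 2 falls in si-BAP1 (24%) and 2 of each in si-MBD5 (16%), shares near those of all genes (medians 0.010 and -0.0044). TOMM22, the receptor of the outer membrane translocase, rose by 0.41 and 0.31, and the chaperonin HSPD1 by 0.25 and 0.18, in si-BAP1 and in si-MBD5 (limma adjusted p between 5.2e-05 and 0.0013). Of 19 carriers and shuttles, 4 rose and 4 fell in si-BAP1 (42.1%), and 3 rose and 2 fell in si-MBD5 (26.3%; medians 0.032 and -0.032). Among them PDSS2, which makes the side chain of ubiquinone, rose by 0.46 and 0.36, and CYCS, cytochrome c, fell by 0.20 in si-BAP1 (adjusted p = 0.0062). Of 21 regulators of mitochondrial biogenesis, 2 rose in si-BAP1 (MYC by 0.25, PPARA by 0.15), and in si-MBD5 PPARA rose by 0.29 and ESRRA fell by 0.13 (adjusted p = 0.0052, 0.042, 0.001 and 0.049). These are 9.52% of the list in each knockdown, below the shares of all genes, and its medians were 0.035 and -0.015.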

How the data were processed

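Each deposited value is the linear intensity of 1 probe set on 1 array. Per the submitters' processing notes the authors used MAS5. Its version and any scaling are not given in the sources used here, and the array medians were nearly equal as deposited. Log2 values were computed here from the deposited intensity after adding 16, which understates changes of dim genes. Of 49395 probe sets, 44988 had 1 gene symbol, 1832 several and 2473 none, and 102 controls were left out. The brightest probe set above the 40th percentile stood for each gene. For 40 of the 82 tested subunit genes its name ends in _s_at or _x_at. limma 3.58.1 in R 4.3.3 (lmFit, eBayes with an intensity trend) fitted 3 group means to 9 arrays (6 residual degrees of freedom), and Benjamini-Hochberg adjustment ran over all genes. Precision is limited by the number of arrays; exact permutation of 3 against 3 arrays cannot go below p = 0.1. The script was tested on simulated data. Promoter letters were searched in RefSeq windows with Python 3.11.15, and figures were drawn with matplotlib 3.10.9. The members and gene lists were chosen with earlier results of these data known. Named genes are every member past the threshold, the largest rise and fall per complex and comparison, members below the filter, members whose probe sets differ in sign with at least 1 past the threshold, and up to 4 genes past the threshold per other list. Alternatives were other constants, scalings, filters, probe set choices, variance models, a replicate block, 2-group fits and each array left out.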

Additional observations from a re-analysis of the deposited data

How the results depend on the processing

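Counts of subunit genes depended most on the variance model and on the number of arrays. Without an intensity trend, 7 genes passed in si-BAP1 (19 as reported), 11 in si-MBD5 (18) and 2 between the knockdowns (6), and 12, 13 and 4 probe sets (26, 29 and 9). Without _x_at and _s_at probe sets, 11 genes passed in si-BAP1 and 2 between the knockdowns, and the median in si-MBD5 was -0.078. Here UQCRB in si-BAP1 turned to 0.039 (limma adjusted p = 0.81) and NDUFA13 in si-MBD5 to 0.17 (adjusted p = 0.092), both read from dimmer probe sets. With only the 2 groups compared, 2 genes passed between the knockdowns, and 15 and 3 probe sets in si-MBD5 and between the knockdowns. With no filter on low values, 16 and 4 probe sets passed in si-BAP1 and between the knockdowns. Quantile normalization moved the medians to -0.030 in si-MBD5 and 0.017 between the knockdowns, and median centring moved the si-MBD5 median to -0.066. Every median kept its sign in every setting. Leaving out 1 array, which also leaves fewer degrees of freedom, gave 9 to 21 genes in si-BAP1, 8 to 20 in si-MBD5 and 1 to 6 between the knockdowns, 11 to 37, 12 to 31 and 1 to 8 probe sets, and medians of -0.020 to -0.0018, -0.059 to -0.048 and 0.022 to 0.039. Between the knockdowns, the lowest gene count was without si-MBD5 array 1, and NDUFA5 kept its call in every setting that gave a value.

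The titles number the arrays 1 to 3 in each group, and the labels do not say that a number marks a shared day. Deviations from group means correlated between -0.43 and 0.48 for 9 same-numbered pairs and between -0.56 and 0.47 for 18 others. Deviations in a group of 3 sum to 0, so these correlations depend on each other and cannot settle whether the numbers pair arrays. With the replicate block, 13, 12 and 3 genes passed in si-BAP1, in si-MBD5 and between the knockdowns, and 17, 21 and 5 probe sets. Of the calls as reported, 5 of 19, 4 of 18 and 1 of 6 held in every setting that gave a value, and of these genes ATP5PD, NDUFA5, SDHD and NDUFB4 gave none without _x_at and _s_at probe sets.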
